A study of Mus musculus with 5 samples.

Results

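Fkbp5, Tsc22d3, Sgk1, Mt1, Mt2 and Cebpd are genes that glucocorticoid hormones are known to induce, Mt1 and Mt2 being metallothioneins that are also induced by metals. They were taken as every probe set whose platform annotation gives exactly 1 gene symbol, and that symbol is one of these 6 or an older name of it. Each gene had 1 such probe set, so the group held 6 of the 8251 genes named by a probe set with 1 symbol, and 6 of the 12422 probe sets that are not the manufacturer's controls. A probe set joins several short probes that read the same transcript, and 0 probe sets with several symbols named one of the 6.

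The study measured RNA labelled as murine lung on 5 Affymetrix arrays. IL-13, a T helper 2 cytokine, was given into the trachea of A/J mice for 3 arrays, whose titles carry the numbers 6, 18 and 48. Saline was given by the same route for 2 arrays, with the numbers 6 and 48. The labels give the number no unit, so it is called the title number, and each array is named by treatment and title number. Each combination holds 1 array, and the labels leave unsaid whether the arrays are of separate animals or of pools. A p-value thus speaks only of the spread over these 5 arrays, which may be technical. Within a treatment that spread, and any SD given, also holds the differences between title numbers, and these cannot be told apart. The labels used here give nothing on age, sex or alleles beyond the strain, and every mouse received an instillation. The values are deposited intensities on a linear scale.

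Marker genes of several tissues differed between the arrays. The alveolar type II genes Sftpb, Sftpc and Sftpd, which define distal lung, summed to 560.6, 19470 and 551.4 on IL-13 6, 18 and 48, against 2967 and 420 on saline 6 and 48. The surfactant gene Sftpc was thus dim on 3 of the 5 arrays (257.2 and 300.5 on IL-13 arrays 6 and 48, 194.3 on saline 48), while the club cell gene Scgb1a1 was bright on all 5 (22020 to 31020). Genes of salivary gland (all 9 listed) summed to 682.3, 689.1 and 954.7 on the IL-13 arrays, against 101300 on saline 6 and 752.2 on saline 48. Genes of T cells and thymus (9 of 10 listed had a probe set, none at 0) summed to 3499, 7295 and 2807 after IL-13, against 10080 and 12570 after saline. Fewer cells of a type and less RNA per cell cannot be told apart in such samples.

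Glucocorticoids act through a receptor that is held in the cytoplasm by the chaperone HSP90 and its partners, enters the nucleus with its ligand and binds short palindromic DNA sites. Fkbp5 encodes a partner of HSP90 that lowers the receptor's affinity for hormone, so its induction is a negative feedback. Tsc22d3, also known as Gilz, encodes a leucine zipper protein that restrains inflammatory transcription, Sgk1 a kinase that promotes sodium channel activity in epithelia, and Cebpd a transcription factor of inflammation and fat cell formation. Metallothioneins are small cysteine-rich proteins that bind zinc and copper, and the factor MTF-1 induces their genes at metal response elements.

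The 3 sequences below are shown because they hold the letters of the sites named above. They are the 250 bases before a RefSeq gene start on GRCm38.p6, printed 5′ to 3′, and capitals mark matches. Both strands were searched for the metal response element core (TGCACNC or TGCGCNC) and for a palindromic glucocorticoid response element, GNACA and TGTNC with 3 bases between them. No match of one kind overlapped a match of the other.
Mt1, chr8:94178839-94179088, plus strand: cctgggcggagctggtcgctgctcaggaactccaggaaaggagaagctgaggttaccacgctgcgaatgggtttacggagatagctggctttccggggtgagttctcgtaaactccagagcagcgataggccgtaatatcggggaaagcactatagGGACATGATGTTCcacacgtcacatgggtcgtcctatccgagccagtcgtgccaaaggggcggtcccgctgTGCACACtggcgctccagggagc
Mt2, chr8:94172368-94172617, plus strand: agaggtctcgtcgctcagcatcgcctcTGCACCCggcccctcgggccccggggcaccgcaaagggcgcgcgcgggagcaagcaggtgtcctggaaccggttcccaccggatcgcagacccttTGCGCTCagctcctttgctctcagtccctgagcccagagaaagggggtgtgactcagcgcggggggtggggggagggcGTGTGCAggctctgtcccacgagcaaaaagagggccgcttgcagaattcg
Sgk1, chr10:21993640-21993889, plus strand: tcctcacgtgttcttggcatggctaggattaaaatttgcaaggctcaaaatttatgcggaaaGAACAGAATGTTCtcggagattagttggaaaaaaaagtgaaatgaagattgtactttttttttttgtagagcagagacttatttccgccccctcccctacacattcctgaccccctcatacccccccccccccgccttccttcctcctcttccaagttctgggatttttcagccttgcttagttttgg

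In Mt1 the glucocorticoid element is the first run of capitals and the metal core the other. Mt2 shows 3 metal cores, and the Sgk1 window shows 1 glucocorticoid element. Counting also the 50 bases after the start, the Mt1 window held 3 metal cores and the Mt2 window 4. Of 32544 distinct RefSeq windows of 300 bases, 25.9% held a metal core, 1.99% held at least 3, and 0.476% held the glucocorticoid element. The Sgk1 sequence is 1 of 6 windows of that gene, 1 of which held the glucocorticoid element and 1 other a metal core. The Fkbp5 window and the 3 Tsc22d3 windows held neither. A match is a description of letters, and these windows leave out sites inside genes.

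No gene of the 6 passed a test by treatment or by title number, and the values below show what each array read. Arrays were brought to the same 2% trimmed mean, values under 55.3 were set to 55.3, and log2 was taken. Probe sets above 210 on at least 2 arrays were tested with limma, two-sided, with Benjamini-Hochberg adjustment over all 7811 and a threshold of 0.05. Tsc22d3 stayed below 210 on every array, which leaves 5 of the 6 tested. By treatment 0 of these 5 passed, while over all probe sets 0.0128% were called higher (1 probe set) and 0.0384% lower (3 probe sets) after IL-13.

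**Figure D1:**
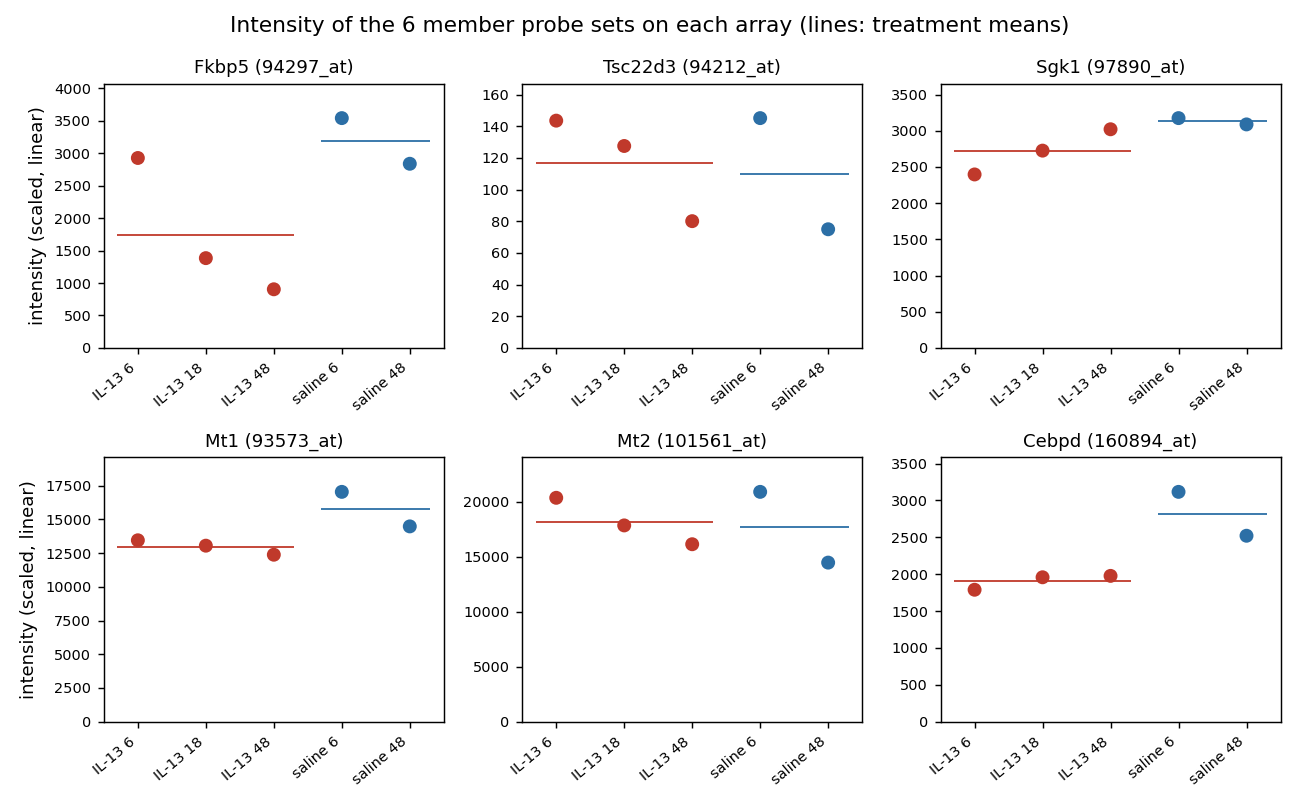
Scaled intensity (vertical axis, linear, starting at 0) of the 6 probe sets on each array (horizontal axis), IL-13 in red and saline in blue, with lines at the treatment means. Fkbp5 spans 903.4 to 3539, Sgk1, Mt1 and Cebpd have every IL-13 point under both saline points, and Tsc22d3 never exceeds 145.1.

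Fkbp5 had the widest range of the 6, and its low values came from IL-13 18 and IL-13 48. Its probe set 94297_at read 2925, 1383 and 903.4 on IL-13 6, 18 and 48, against 3539 and 2836 on saline 6 and 48. IL-13 6 lay between the saline arrays, so the treatments overlapped, while IL-13 18 and IL-13 48 lay below both. Fkbp5 averaged 1737 ± 1060 after IL-13 (SD, n = 3) and 3188 ± 497 after saline (SD, n = 2). The log2 difference was -1.04 (SE 0.47, limma adjusted p = 0.574), and 1.38% of tested probe sets had a difference at least as low. Leaving out 1 array gave -1.50 (without IL-13 6) to -0.66 (without IL-13 48).

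In the pair of title number 48, Fkbp5 was lower on IL-13 48, 3.14-fold, than on saline 48. At least as large a difference downward was found in 0.845% of tested probe sets. In the pair of title number 6 the IL-13 array was 1.21-fold lower, and 21.8% of tested probe sets were at least as low. A pair is 1 array against 1 and has no test, and whether the pairs differ was not tested. With the other saline array as control the log2 difference was 0.04 for IL-13 6 and -1.97 for IL-13 48. The T cell and thymus genes summed to 2807 on IL-13 48, against 12570 on saline 48, so they were lower in the same pair. They were also lower in the pair of 6, at 3499 against 10080, and summed to 7295 on IL-13 18. Their part in the Fkbp5 value was not tested. At a threshold of 2-fold, 1 of the 6 probe sets (Fkbp5) was lower at 48 and 0 were higher, where 1.09% of all probe sets were lower and 0.596% higher. At 6 none of these 6 probe sets passed 2-fold, where 2.14% were lower and 1.84% higher.

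**Figure D2:**
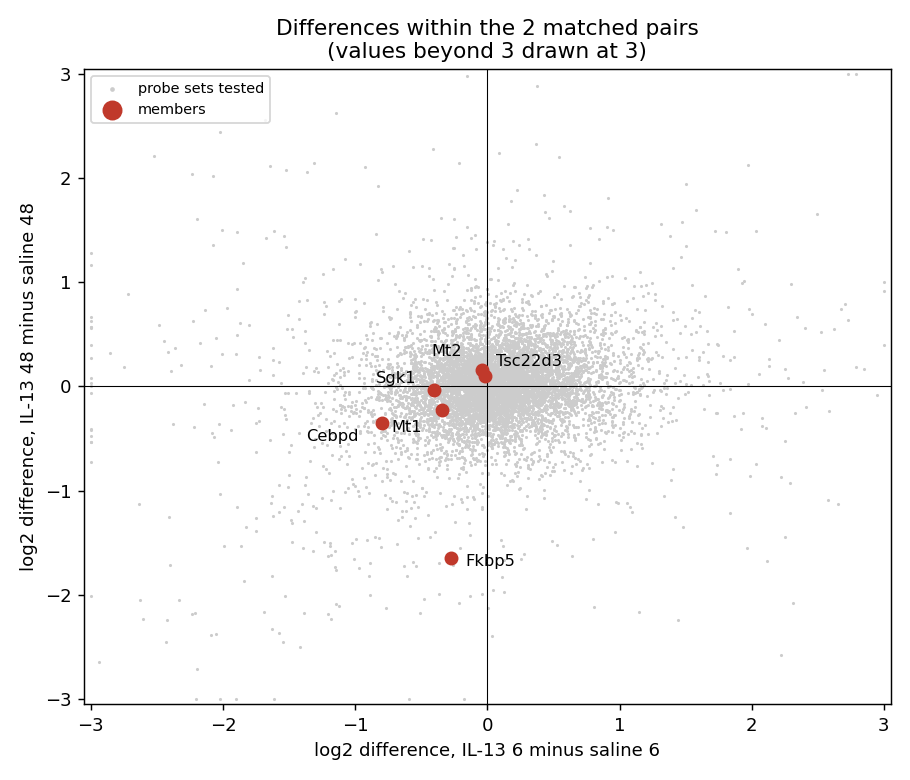
Log2 difference of IL-13 from saline in the pair of title number 6 (horizontal axis) and of title number 48 (vertical axis), with all 7811 tested probe sets in grey, the 6 named genes in red and values beyond 3 drawn at 3. Fkbp5 lies at -0.28 and -1.65, Cebpd at -0.80 and -0.35, and the other 4 lie within 0.41 of 0 on both axes.

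Cebpd had the clearest separation by treatment. Its probe set 160894_at read 1789, 1958 and 1977 on IL-13 6, 18 and 48, against 3116 and 2521 on saline 6 and 48. All 3 IL-13 arrays lay below both saline arrays, and the IL-13 arrays lay close together. Cebpd averaged 1908 ± 103 after IL-13 (SD, n = 3) and 2819 ± 420 after saline (SD, n = 2). The log2 difference was -0.56 (SE 0.18, limma adjusted p = 0.469), from -0.71 to -0.40 leaving out 1 array. After IL-13 it was 1.74-fold lower at 6, and at 48 it was lower by 1.28-fold, where 5.62% and 13.7% of tested probe sets were as low. Fat cell genes (5 of 7 listed had a probe set, none at 0) summed to 15270, 14590 and 14460 after IL-13, against 29870 and 16970 after saline, which is the same order of groups. Their part in the Cebpd value was not tested.

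Sgk1 differed little between arrays. Its probe set 97890_at read 2396, 2725 and 3020 on IL-13 6, 18 and 48, against 3174 and 3087 on saline 6 and 48. All 3 IL-13 arrays lay below both saline arrays, but IL-13 48 only just. The log2 difference was -0.21 (SE 0.18, limma adjusted p = 0.759). Sgk1 was 1.32-fold lower at 6, and at 48 it read 0.978 times the saline value.

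Tsc22d3 was dim. Its probe set 94212_at read 143.5, 127.5 and 80.05 on IL-13 6, 18 and 48, against 145.1 and 74.93 on saline 6 and 48. The arrays of title number 6 read alike and so did those of 48, and the treatments overlapped. All 5 values lay above 55.3 and under 210, so the gene entered no test, and at this signal a difference is poorly measured. The ratio of IL-13 to saline was 0.989 at 6 and 1.07 at 48, while the ratio of 6 to 48 was 1.79 within IL-13 and 1.94 within saline. Without the filter on dim probe sets, the difference of title number 6 from 18 and 48 was 0.70 with a limma adjusted p of 0.652.

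Mt1 and Mt2, neighbours on mouse chromosome 8 that are usually induced together, did not keep one order over the arrays. Mt1 (93573_at) read 13450, 13050 and 12380 on IL-13 6, 18 and 48, against 17040 and 14480 on saline 6 and 48. All 3 IL-13 arrays lay below both saline arrays, with a log2 difference of -0.28 (SE 0.17, limma adjusted p = 0.676). Mt2 (101561_at) read 20350, 17840 and 16130 on the IL-13 arrays in the same order, against 20890 and 14460 on saline 6 and 48. Here the treatments overlapped, the log2 difference was 0.05 (SE 0.22, limma adjusted p = 0.955), and its sign turned when IL-13 6 (-0.04) or saline 48 (-0.21) was left out. In both treatments Mt2 was higher at 6 than at 48, 1.26-fold after IL-13 and 1.44-fold after saline, and for Mt1 these ratios were 1.09 and 1.18.

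The log2 value of Mt1 minus that of Mt2 was -0.60, -0.45 and -0.38 on IL-13 6, 18 and 48, against -0.29 and 0.00 on saline 6 and 48. It was lower on all 3 IL-13 arrays than on both saline arrays, and averaged -0.48 ± 0.11 (SD, n = 3) after IL-13 and -0.15 ± 0.21 (SD, n = 2) after saline. This value and its test were not planned beforehand. A one-sided exact permutation test, in the direction observed, gave p = 0.1, the smallest that 3 arrays against 2 allow. It could not pass 0.05 and adds nothing to that order. Both probe sets are bright, up to 20890 where the highest value on an array lay between 22024 and 32284, and saturation, which would shrink differences, was not tested.

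Counted together, 3 of the 5 tested genes (Sgk1, Mt1 and Cebpd) had every IL-13 array under both saline arrays and 0 had every one above. Over all tested probe sets 11% lay below and 14.8% above. The count was 5 of 5 without saline 48 (where 26.3% of all tested probe sets lay below), and 3 of 5 without saline 6, the array with the high salivary gland sum (26.4%). The median log2 difference of the 5 was -0.28, against 0.04 over all tested probe sets. All 6 genes were lower on IL-13 6 than on saline 6, as were 45.1% of all tested probe sets, but Mt2 and Tsc22d3 by only 1.03-fold and 1.01-fold. With saline 48 as the control for IL-13 6 it was 3 of 6 (49.9% of tested probe sets), with log2 differences of 0.04 for Fkbp5, 0.94 for Tsc22d3 and 0.49 for Mt2. On IL-13 48, 4 of 6 were lower than on saline 48 (47.7%), and 6 of 6 were lower than on saline 6 (43.4%).

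By title number the 6 genes did not share a direction over both treatments. All 6 read higher on saline 6 than on saline 48, Sgk1 by only 1.03-fold, where 44.5% of tested probe sets read at least as high. Within IL-13, 4 of 6 read higher on 6 than on 48 (47.7% at least as high), while Sgk1 and Cebpd read lower (0.793 and 0.905 times). Fkbp5 and Mt2 had both arrays of 6 above the other 3, as did the untested Tsc22d3. Fitted with treatment as a second term, none of the 5 tested genes passed, and neither did any probe set, higher (0%) or lower (0%), in limma, where 291 and 405 had an unadjusted p under 0.05. Fkbp5 averaged 3232 over both arrays of 6 and 1707 over the 3 of 18 and 48, a log2 difference of 0.93 (SE 0.33, limma adjusted p = 0.538). A difference at least as high was found in 1.41% of tested probe sets. The lowest array of 6 (IL-13 6, 2925) was only just above saline 48 (2836), and without IL-13 6 the difference was 0.32. Within IL-13, Fkbp5 was 3.24-fold higher at 6 than at 48, which 0.602% of tested probe sets reached, and within saline it was 1.25-fold higher, which 19.4% reached. Mt2 differed by 0.38 (SE 0.17, adjusted p = 0.565), but by only 0.06 with quantile normalization. Mt1 differed by 0.15 (SE 0.16, -0.10 with quantile normalization), Cebpd by 0.05 (SE 0.18) and Sgk1 by -0.13 (SE 0.17). Both arrays of 6 lay above the other 3 for 2 of the 5 tested genes, Fkbp5 and Mt2, and for Tsc22d3, where 10.9% of all tested probe sets did so and 15.8% lay below. Genes of skeletal muscle (all 6 listed, none at 0) summed to 105000 and 93880 on IL-13 6 and saline 6, against 78490, 74070 and 70320 on IL-13 18, IL-13 48 and saline 48, and 3 of the 6 had both arrays of 6 above the others. The 5 fat cell genes all had a higher mean at 6, 1 of them (Cidec) with both arrays of 6 above the others. Genes of heart (all 7 listed, none at 0) summed to 18180 and 30860 on IL-13 6 and saline 6, against 23260, 12120 and 11360 on IL-13 18, IL-13 48 and saline 48. The part of these markers in the values by title number was not tested. The count of tested genes of the group with the arrays of 6 above the others was 1 of 5 with quantile normalization (11.8% of all tested probe sets). Without IL-13 6 that count was 5 of 5 (25.6% of all tested probe sets).

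Other genes induced by glucocorticoids were taken from a list of 39 symbols, in which Cyr61 and Ccn1 name the same gene. Of these symbols 35 had a probe set and 31 were tested. By treatment 12 had a higher and 19 a lower mean, 3 had all IL-13 arrays above and 5 below both saline arrays (14.8% and 11% of all tested probe sets), none passed, and the median log2 difference was -0.19 (0.04 over all tested probe sets). Among the 5 below, another tested probe set differed by 0.58 for Txnip, with all IL-13 arrays above, and by 0.09 for Errfi1. That of Nfkbia again had all IL-13 arrays below (-0.67). Glul, among the 3 above, differed by -0.44 on another probe set. By title number 18 were higher at 6 and 13 lower, none passed, and the median was 0.10 (-0.04 over all). Both arrays of 6 lay above the other 3 for 10 of the 31 and below for 2, where 10.9% of all tested probe sets lay above and 15.8% below. The skeletal muscle sum given above was also higher on both arrays of 6, and all 5 fat cell genes had a higher mean there, and their part in this count was not tested. The 10, named because they make up this count, were Gadd45g, Zbtb16, Sult1a1, Per1, Map3k6, Pck1, Pdk4, Angptl4, Rgs2 and Klf9, among them the clock gene Per1 and Pck1, an enzyme of glucose synthesis. Without IL-13 6 it was 17, and without saline 6 it was 12, where 25.6% and 26.4% of all tested probe sets did so. Angptl4 was counted by its probe set with the highest mean. Its other tested probe sets differed by 0.26 and -0.31 by title number, and on both the arrays overlapped.

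By title number the widest differences in that list were in Gadd45g, Zbtb16, Sult1a1 and Lox. Gadd45g, a growth arrest and stress gene, read 1295, 561.8 and 432.9 on IL-13 6, 18 and 48, against 1224 and 500.4 on saline 6 and 48 (log2 difference of 6 from the rest 1.35, SE 0.19, limma adjusted p = 0.464). It followed title number in both treatments. Zbtb16, a zinc finger repressor, read 3893, 1038 and 1203 against 3878 and 2496 in the same order (1.30, SE 0.30, adjusted p = 0.464), on the g_at probe set 92202_g_at, while its other probe set was below 55.3 on all 5 arrays. Sult1a1, a sulfotransferase, read 426.1, 142.3 and 131.1 against 442.3 and 251.1 (1.29, SE 0.24, adjusted p = 0.464). In these 2 genes, as in Fkbp5, IL-13 18 and IL-13 48 were lowest. Lox, which crosslinks collagen, ran the other way, with 298.6, 507.4 and 429.2 against 199.7 and 619.3 (-1.07, SE 0.27, adjusted p = 0.464). Without IL-13 6 the difference by title number was 0.64 for Zbtb16, 0.82 for Sult1a1 and -1.63 for Lox, and without saline 6 it was -0.64 for Lox.

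By treatment the widest were in Ddit4, Zbtb16, Pdk4 and Il1r2. Ddit4, an inhibitor of mTOR signalling, read 1991, 929.5 and 1098 on IL-13 6, 18 and 48, against 2196 and 2733 on saline 6 and 48 (log2 difference -0.95, SE 0.34, limma adjusted p = 0.509). Every IL-13 array was below both saline arrays. Zbtb16 differed by -0.88 (SE 0.58) and Pdk4, a kinase that limits glucose oxidation, by -0.84 (SE 0.38), with Pdk4 at 11590 on saline 6 and between 3258 and 5805 on the other 4 arrays. Leaving out 1 array gave -1.48 (without IL-13 6) to -0.52 (without IL-13 18) for Zbtb16 and -1.36 (without saline 48) to -0.32 (without saline 6) for Pdk4. Il1r2, a decoy receptor for interleukin-1 that is also a neutrophil gene, was higher on all IL-13 arrays, with 623.6, 701.4 and 633.3 against 355.3 and 409.7 (0.77, SE 0.17, adjusted p = 0.312). Genes of neutrophils, a list of 4 that includes Il1r2, summed to 2534, 2323 and 1944 after IL-13, against 1502 and 1539 after saline, and their part in that value was not tested.

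**Figure D3:**
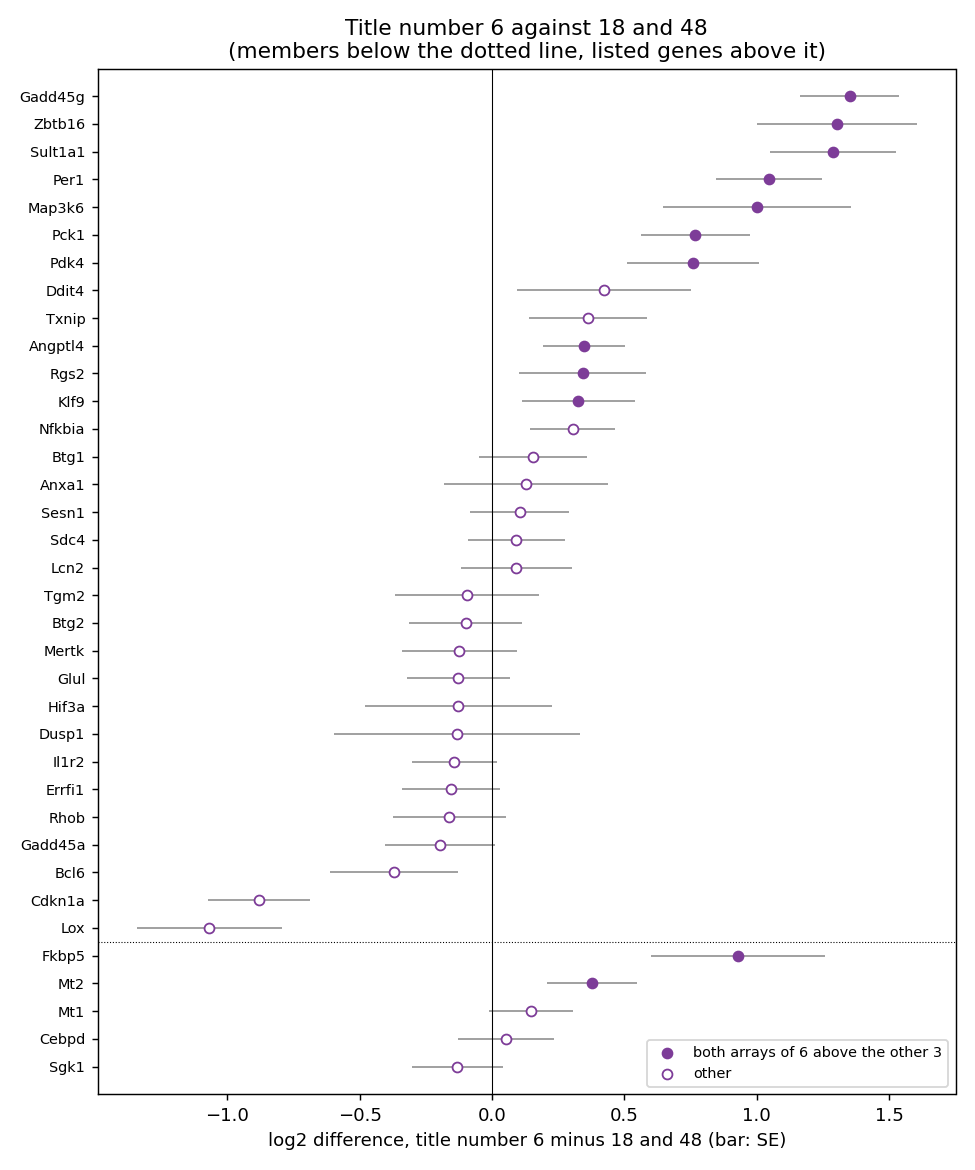
Log2 difference of title number 6 from 18 and 48 with its SE (horizontal axis) for the 5 tested genes of the group (below the dotted line) and 31 listed glucocorticoid-induced genes (above it). Filled points mark genes with both arrays of 6 above the other 3, among them Fkbp5 at 0.93 and Mt2 at 0.38 below the line and 10 genes above it.

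Of the receptor and its partners, the probe set of the glucocorticoid receptor gene Nr3c1 read 22.89 to 51.94. These values are all below 55.3, and no fold is given. The list of 17 receptor partners and steroid enzymes had 11 tested genes, 8 with a higher and 3 with a lower mean after IL-13, and none passed. The HSP90 gene Hsp90aa1 read 6097, 6718 and 8593 on IL-13 6, 18 and 48, against 4489 and 6140 on saline 6 and 48 (0.43, SE 0.23). The phosphatase gene Ppp5c, a partner of the receptor complex, read 209.7, 219.3 and 198 against 276.4 and 275.5 (-0.40, SE 0.16, limma adjusted p = 0.529). Ppp5c was thus lower on all IL-13 arrays, but near 210. Stip1, a chaperone adapter, differed by 0.28 and the coactivator gene Ncoa1 by 0.22. Both arrays of 6 lay below the other 3 for 5 of the 11 and above for 0, where 15.8% of all tested probe sets lay below and 10.9% above. Without saline 6 the differences by treatment were 0.01 for Stip1, 0.00 for Ncoa1 and 0.20 for Hsp90aa1.

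Of 6 other immunophilin genes tested, 5 had a higher mean after IL-13 and Fkbp2 a lower one, from -0.25 (Fkbp2, SE 0.16) to 0.45 (Fkbp7, SE 0.17) on the log2 scale, and none passed. Fkbp1a differed by 0.15, Fkbp1b by 0.15, Fkbp3 by 0.24 and Fkbp9 by 0.26. Without saline 6 the sign turned for Fkbp1b (-0.05) and Fkbp9 (-0.08). Whether any of them differs from Fkbp5 was not tested. By title number they lay between -0.51 (Fkbp1b) and 0.15 (Fkbp1a). Of the TSC22 family, Tsc22d1 differed by -0.03 and Tsc22d4 by -0.19 by treatment.

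Of the genes around Sgk1, the kinase gene Pdpk1, whose product activates it, read 1348, 1501 and 1442 on IL-13 6, 18 and 48, against 783.8 and 1192 on saline 6 and 48 (0.56, SE 0.22, limma adjusted p = 0.529). Its other probe set differed by -0.07. Ndrg1, a substrate, differed by 0.49 (SE 0.20) on one probe set and by -0.22 on the other. Nedd4l, a ubiquitin ligase restrained by Sgk1, differed by -0.09 and the forkhead gene Foxo3 by -0.03. Pdpk1 and Ndrg1, 2 of the 4 genes tested here, had every IL-13 value higher than either saline value on the probe set with the higher mean. The same order was found in 14.8% of all tested probe sets. On the other probe set of each gene the treatments overlapped and the difference was negative.

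Of the C/EBP family, Cebpb, a partner of Cebpd, read 3336, 2378 and 2138 on IL-13 6, 18 and 48, against 3902 and 2686 on saline 6 and 48. It was higher on both arrays of 6 (log2 difference by title number 0.55, SE 0.16, limma adjusted p = 0.484), and differed by -0.33 (SE 0.27) by treatment. The other members differed by treatment by -0.16 (Cebpa), -0.22 (Cebpg) and 0.09 (Ddit3). None passed either test.

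Of the other genes of metal and oxidant handling, 21 of 25 listed were tested, 16 with a higher and 5 with a lower mean after IL-13. None passed, and the median was 0.22 (0.04 over all tested probe sets). Without saline 6 the difference turned negative for Mt3, Slc30a4, Slc39a6, Hmox1, Gclc, Gclm and Nqo1, from -0.02 (Mt3) to -0.34 (Slc39a6). It turned positive for Fth1 and Ccs. Leaving out another array turned the sign of Mt4, Slc30a3, Slc39a8 and Tfrc. Mt3 read 2316, 2365 and 2332 on IL-13 6, 18 and 48, against 1699 and 2375 on saline 6 and 48. Mt4 read 5220, 8136 and 13470 against 5688 and 8634, lowest at 6 in both treatments (by title number -0.83, SE 0.27, limma adjusted p = 0.519), which is the opposite order to Mt2. Mtf1, the gene of the metal-sensing factor, read 422.3, 394.2 and 446.4 against 652.4 and 546, with each IL-13 array below both saline arrays (-0.51, SE 0.18, adjusted p = 0.503). The zinc transporter genes Slc39a8 and Slc39a4 differed by 0.42 (SE 0.63) and 0.32 (SE 0.18). Slc39a8 read 694 on IL-13 18 and 157.8 to 229.5 on the other 4 arrays, and without IL-13 18 its difference was -0.26. The quinone reductase gene Nqo1 differed by 0.85 (SE 0.59), with 163.8 on saline 6 and 522 to 824.3 on the other 4 arrays, and its sign turned to -0.20 without saline 6. Gclc, of glutathione synthesis, was lower at 6 by title number (-0.72, SE 0.17, adjusted p = 0.464).

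Fkbp5 was the one gene of the 5 tested whose highest array was at least 2-fold above its lowest (3.92-fold), and the genes nearest to its pattern were sought among 7062 tested probe sets with 1 symbol. Likeness was the root mean square difference of log2 values centred on each probe set's mean over the 5 arrays. Gdap10, listed by RefSeq as a long noncoding RNA, was nearest at 0.13 and read 1142, 448.8 and 291.2 on IL-13 6, 18 and 48, against 1047 and 926.2 on saline 6 and 48. Sult1a1 followed at 0.28. Klf13, a transcription factor, also at 0.28, read 994.4, 714.2 and 546.8 against 1457 and 1314. All 3 were lowest on IL-13 48, and they were chosen for this likeness from many probe sets over 5 arrays.

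**Figure D4:**
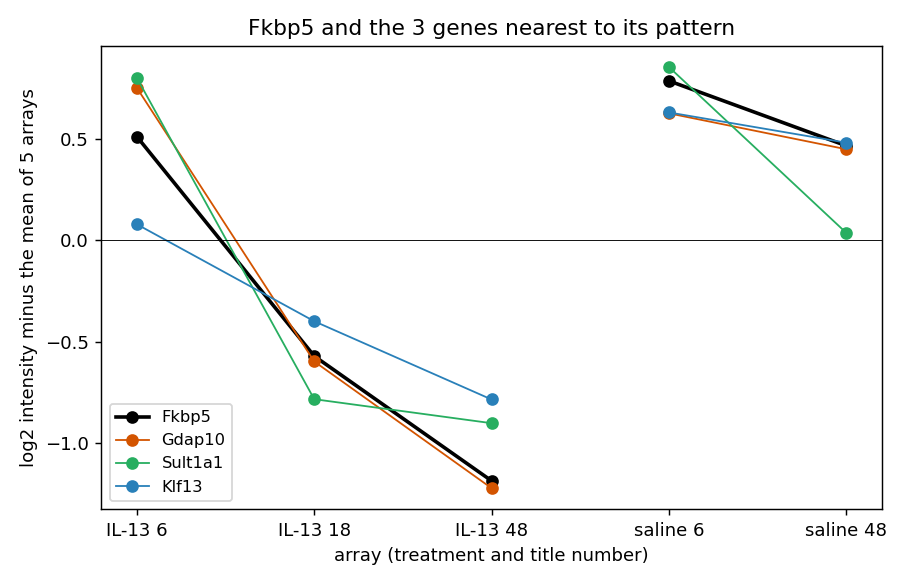
Log2 intensity minus each gene's mean over the 5 arrays (vertical axis) by array (horizontal axis) for Fkbp5 and the 3 genes nearest to it. All 4 lines are lowest at IL-13 48, and Gdap10 lies within a root mean square difference of 0.13 of Fkbp5.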

How the data were processed

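The authors deposited intensities on a linear scale for 12488 probe sets on 5 arrays. The software and background correction behind them were not given in the sources used here. Each array has a 2% trimmed mean of 800.39 to 800.47 and had thus been scaled. Controls (66) were left out. The platform annotation named 1 gene for 10833 probe sets and several for 396, and left 1193 unnamed, and symbols were updated through the RefSeq gene table of GRCm38.p6.

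Values were rescaled to a common trimmed mean, floored at the pooled 20th percentile (55.3) and filtered at the 40th (210). limma 3.58.1 (lmFit, eBayes; R 4.3.3) fitted the log2 values by treatment (3 residual degrees of freedom) and by title number 6 against 18 and 48 with treatment as a term (2). The fit was also run on data simulated with independent noise, which checks the code and not the design of these arrays. SE is moderated. The number of arrays limits the precision.

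The members, gene lists and tests were chosen with earlier results of these data known. For gene lists, 1 probe set per gene (highest mean log2) was used, and the 4 genes with the widest difference in each fit were named, with families of up to 6 in full. The nearest genes were sought for genes with at least a 2-fold range. In matched pairs a probe set counted if it differed 2-fold or more and its higher value exceeded the pooled median (343). Alternatives were other scalings, floors, filters, variance settings, title number as a block, the other saline array and leaving out each array. Promoter windows are RefSeq's on GRCm38.p6, and Cebpd had none in the table used. The exact permutation test used scipy 1.17.1, and figures matplotlib 3.10.9.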

Additional observations from a re-analysis of the deposited data

Results flagged for a closer look

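For Mt2 and Tsc22d3 the IL-13 array lay on opposite sides of its saline array in the pairs of title numbers 6 and 48. The log2 difference of Mt2 was -0.04 at 6 and 0.157 at 48, and that of Tsc22d3 was -0.02 at 6 and 0.095 at 48. Each pair is 1 array against 1, and whether they differ was not tested. For Mt2 it was 0.49 for IL-13 6 and -0.37 for IL-13 48 with the other saline array as control, and for Tsc22d3 it was 0.94 and -0.86.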

How the results depend on the processing

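None of the 6 genes passed by treatment or title number in any setting. This covers 152 results, each of 1 gene in 1 comparison under 1 setting, and Tsc22d3 entered only without the filter on dim probe sets. Fkbp5, Sgk1, Mt1 and Cebpd kept a negative difference by treatment in every setting, and Fkbp5 and Mt2 a positive one by title number. With quantile normalization that of Mt2 was only 0.061. Signs turned for Mt2 by treatment (-0.213 to 0.318 leaving out 1 array), and by title number for Sgk1 (-0.26 to 0.04), Cebpd (-0.137 to 0.305) and Mt1 (-0.1 with quantile normalization). By treatment 4 probe sets were called, 0 with the floor moved to the 10th or 40th percentile, no filter, trend and robust settings or title number as a replicate block, 1 with a filter at the 60th percentile, and 0 to 13 leaving out 1 array (13 without saline 48). With the replicate block, over the arrays of 6 and 48, the difference was -0.963 for Fkbp5 (adjusted p = 0.666) and -0.576 for Cebpd (adjusted p = 0.679), and it changed no call of the 5. The log2 difference of 6 from 48 within IL-13 and that within saline correlated with r = 0.132 across 7811 probe sets, over 2 pairs. No label says that a number marks a shared litter or day. By title number 0 were called, and 0 to 4 leaving out 1 array. Of the 5 tested genes, 3 to 5 had all IL-13 arrays below saline leaving out 1 array, where 14.8% to 26.4% of all tested probe sets did so. The arrays of 6 lay above the others for 2 to 5 of them, where 14.5% to 26.4% of all tested probe sets did so (1 with quantile normalization, 11.8%). For the glucocorticoid-induced list the latter count was 10 to 17 of 31, beside the same 14.5% to 26.4%. With the other saline array as control, 275 and not 495 probe sets were 2-fold apart for IL-13 6, and 563 and not 210 for IL-13 48. Of the 6 genes, 3 and not 6 were then lower on IL-13 6, and 6 and not 4 on IL-13 48. The counts without overlap under alternatives, and the count of genes lower with the other saline array, were added after seeing the data. The value of Mt1 minus Mt2 and its test were not planned beforehand. The causes were not tested.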
